A study of Mus musculus with 6 samples.

Results

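The EGF and neuregulin family genes described here are 10 genes of the 54429 in the count files: the EGF-type ligands Hbegf, Tgfa and Btc, the receptors Egfr, Erbb2, Erbb3 and Erbb4, and the neuregulins Nrg1, Nrg2 and Nrg3. They were found by gene symbol, and the family was chosen by the measured difference of Hbegf, which was higher in the libraries with the hairpin. All values of the comparison between the groups are therefore given for these 10 genes as a description, without p-values. A count of calls among them is given only beside the share over all genes, and nothing is read from it. The RNA was total RNA of bulk prefrontal cortex from mice aged 6 to 8 weeks, in 3 libraries labelled as injected with AAV9 (an adeno-associated virus vector) that carried a short hairpin RNA against the histone methyltransferase gene Kmt5b (Kmt5b shRNA) and 3 labelled as injected with AAV9 carrying green fluorescent protein (GFP). The sample labels give the mice of both groups as C57BL6/J, the design text as a cross of C57BL/6 and C3H, and that text counts a pair of control mice where the labels name 3 control libraries. The promoter of the hairpin, the cells it reached and whether the GFP vector held a control hairpin are not given in the sources used here.

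The family works as a set of secreted or membrane-bound ligands that make receptor tyrosine kinases pair up at the cell surface and signal through RAS, ERK and AKT. HB-EGF, the product of Hbegf, is made as a membrane protein, is cut free by ADAM proteases and binds the EGF receptor and ErbB4. TGF-alpha (Tgfa) binds the EGF receptor, and betacellulin (Btc) binds the EGF receptor and ErbB4. The neuregulins NRG1 and NRG2 bind ErbB3 and ErbB4, and NRG3 binds ErbB4. ErbB2 has no known ligand of its own and serves as a partner of the other receptors, and ErbB3 has a weak kinase and depends on such a partner. In cortex ErbB4 is best known from inhibitory interneurons, among them parvalbumin cells, and ErbB3 from cells of the oligodendrocyte lineage.

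The bases just before the RefSeq start sites of Egfr and Erbb4 are shown because these genes encode the receptors that HB-EGF binds. The RefSeq promoter table held 6 of the 10 genes. Both stretches are of build GRCm38.p6 and hold the 250 bases before the start, written 5′ to 3′ on the gene's strand. The Egfr stretch is chr11:16751953-16752202 on the plus strand and the Erbb4 stretch chr1:69108060-69108309 on the minus strand. Capitals mark a GC box, the letters GGGCGG or their reverse complement CCGCCC.
Egfr: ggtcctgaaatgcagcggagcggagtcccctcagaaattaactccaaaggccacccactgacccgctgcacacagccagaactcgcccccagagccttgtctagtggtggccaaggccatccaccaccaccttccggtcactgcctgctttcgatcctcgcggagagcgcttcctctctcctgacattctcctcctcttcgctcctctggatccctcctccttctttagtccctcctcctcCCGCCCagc
Erbb4: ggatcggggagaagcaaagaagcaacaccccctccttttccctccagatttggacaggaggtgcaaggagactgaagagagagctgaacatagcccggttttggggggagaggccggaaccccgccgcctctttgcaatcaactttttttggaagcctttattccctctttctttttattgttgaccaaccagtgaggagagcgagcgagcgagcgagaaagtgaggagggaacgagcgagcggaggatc
The Egfr stretch held 1 GC box and the Erbb4 stretch 0, and 32.7% of all 32851 promoter stretches of this length in the RefSeq table held at least 1. Neither stretch held a TATA box (TATAAA, found in 12.4% of all stretches on either strand) or a CCAAT box (CCAAT, in 33.8%). Their GC content was 60.8% for Egfr and 54.0% for Erbb4, against a median of 52.4% over all stretches. A match is a description of the letters in this window.

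The libraries held 48828638 to 57486203 counts in the Kmt5b shRNA group and 29490771 to 74723284 in the GFP group. Values below are CPM, the share of a gene in its library scaled by edgeR with TMM factors. Kmt5b itself was at 68.5, 80.3 and 63.9 CPM in the Kmt5b shRNA libraries and at 86.5, 79.7 and 80.9 CPM in the GFP libraries. The groups thus overlapped at the targeted gene through Kmt5b shRNA replicate 2 (edgeR quasi-likelihood adjusted p = 0.303 over all genes), and the directions given here depend on those labels. Processed pseudogenes took 0.271% to 0.282% of counts in the Kmt5b shRNA libraries and 1.17% to 1.20% in the GFP libraries. The groups thus differ in that share, and whether the files of both groups were made in the same way is not given in the sources used here. None of the 10 genes has a pseudogene copy in the annotation used, and 7 of them, Hbegf included, share no stretch of 100 nucleotides at 90% identity with any other gene. The part of the group difference in pseudogene counts in the values below was not tested. All defining markers of neurons, interneurons, astrocytes, oligodendrocytes, oligodendrocyte precursors, microglia and vessels were above 0 in every library. Markers of cortical excitatory neurons summed to 628.7 to 642.5 CPM in the Kmt5b shRNA libraries and 537.1 to 580.2 CPM in the GFP libraries, ranges that do not overlap. Of these 8 markers, 7 had a log2 fold change above 0 (median 0.27), and 0 reached an edgeR adjusted p under 0.05. Their part in the values below was not tested. The 6 striatal markers summed to 74.7 to 106.3 CPM and 86.1 to 105.4 CPM in the same groups.

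Hbegf was higher in all 3 Kmt5b shRNA libraries than in any GFP library, and it was the 1 gene of the family with a log2 fold change outside 0.3 of 0. Hbegf lies on chromosome 18 from 36504927 to 36515805 (mm10, GENCODE M21). Its level was 20.6, 14.7 and 26.1 CPM in the Kmt5b shRNA libraries (counts of 1170, 683 and 1431), against 10.4, 10.2 and 7.99 CPM in the GFP libraries (counts of 693, 314 and 625). The Kmt5b shRNA libraries ran from close above the GFP range in replicate 2 to well above it in replicate 3. Hbegf averaged 20.4 ± 5.69 CPM in the Kmt5b shRNA group and 9.52 ± 1.33 CPM in the GFP group (SD, n = 3 each). That is 2.15-fold, or 1.11 ± 0.19 on the log2 scale (SE from the edgeR fit). Across all genes tested, 1.94% had a log2 fold change of 1 or more, and this comparison is the one from which Hbegf was picked, so nothing is read from that share. Leaving out Kmt5b shRNA replicate 3 gave 0.90 on the log2 scale and leaving out replicate 2 gave 1.30, the ends of its range over the 6 fits that each left out 1 library. In bulk tissue more cells that express a gene and more RNA per cell cannot be told apart, here and for every gene below.

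Within the Kmt5b shRNA group, the library with the most Kmt5b RNA had the least Hbegf RNA. Replicate 2 had 80.3 CPM of Kmt5b and 14.7 CPM of Hbegf, replicate 1 had 68.5 and 20.6 CPM, and replicate 3 had 63.9 and 26.1 CPM. The GFP group did not show this order: replicate 1 had the most Kmt5b RNA and also the most Hbegf RNA, at 86.5 and 10.4 CPM. Each group has 3 libraries, too few for any test of such an order. Hbegf varied more between Kmt5b shRNA libraries than most of the family, with a coefficient of variation of 27.9% against 14.0% between GFP libraries. Erbb3 had a like spread in the Kmt5b shRNA group (28.0%) and Btc a larger one (43.5%).

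**Figure D1:**
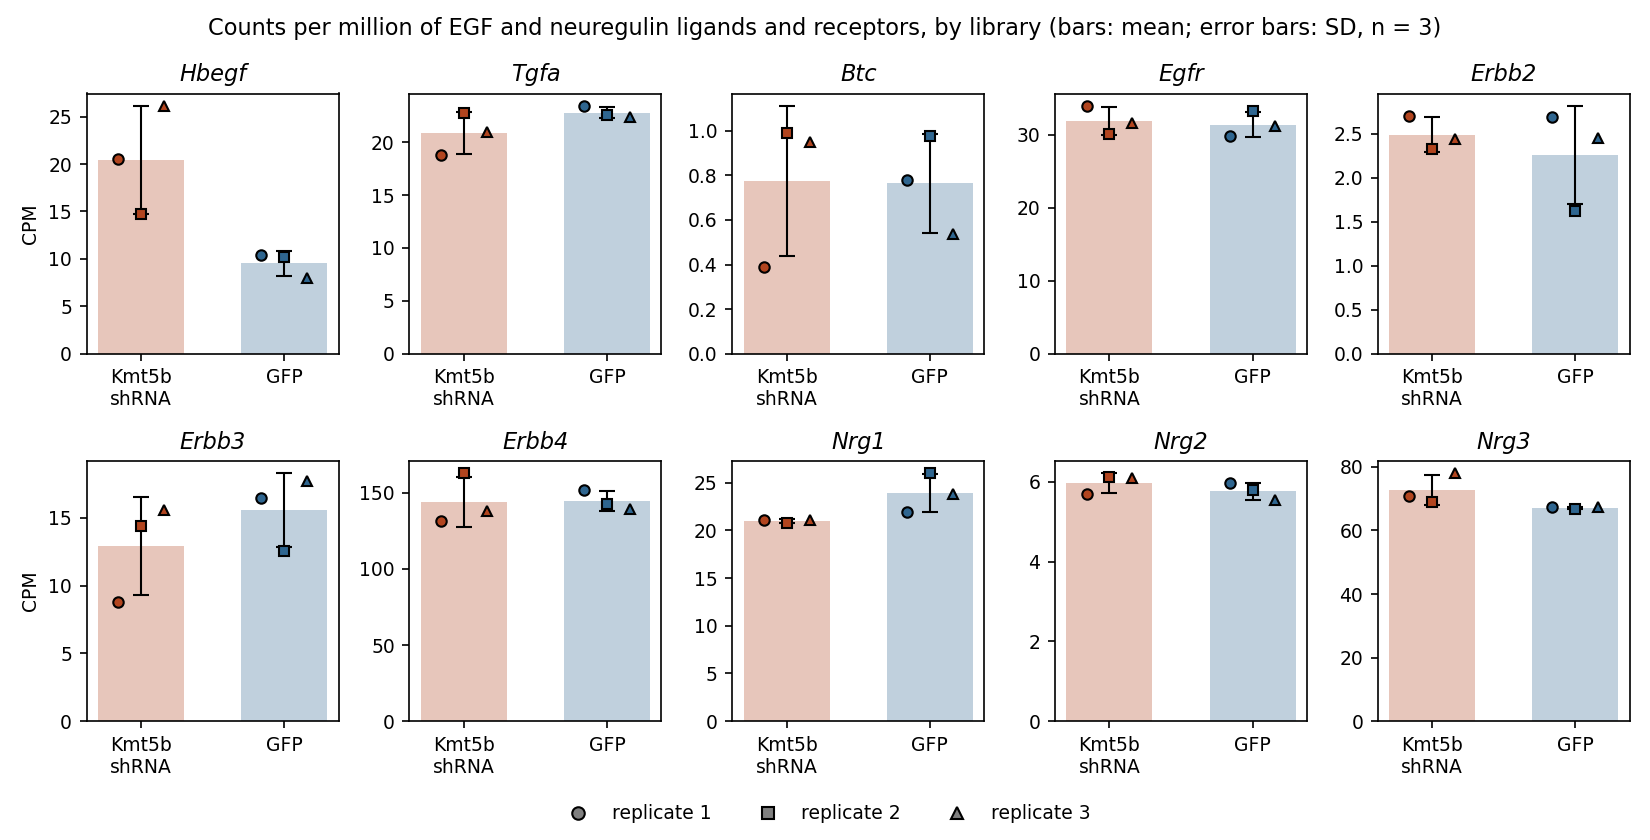
Level of each of the 10 genes in CPM (vertical axes, each from 0) in the 3 Kmt5b shRNA and 3 GFP libraries. Points are libraries, bars are means and error bars SD. Hbegf lies between 14.7 and 26.1 CPM in the Kmt5b shRNA libraries and between 7.99 and 10.4 CPM in the GFP libraries, while most other panels overlap.

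The other EGF-type ligands did not show this difference. Tgfa was at 18.8, 22.8 and 20.998 CPM in the Kmt5b shRNA libraries and at 23.4, 22.5 and 22.4 CPM in the GFP libraries. The groups overlapped through Kmt5b shRNA replicate 2, and the log2 fold change of Tgfa was -0.13 ± 0.11 (SE). Btc was near the floor of what these libraries measure, with 22, 46 and 52 counts in the Kmt5b shRNA libraries and 52, 30 and 42 counts in the GFP libraries. Its log2 fold change of 0.04 ± 0.41 (SE) leaves room for a sizeable difference either way. Leaving out Kmt5b shRNA replicate 1 gave 0.37 and leaving out GFP replicate 3 gave -0.17. Among the ligands outside the 10 genes, Egf, the founding ligand of the EGF receptor, was at 2.40 ± 0.663 CPM in the Kmt5b shRNA group and 1.53 ± 0.407 CPM in the GFP group (SD, n = 3 each, edgeR adjusted p = 0.258). Nrg4, a neuregulin that binds ErbB4, had a log2 fold change of -0.28 and likewise did not pass. Areg and Epgn, which encode further EGF receptor ligands, had 35 and 25 counts over all 6 libraries and were not tested. Ereg, a ligand gene of the same kind, had 0 counts in each library.

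The neuregulins differed little between the groups. Nrg3, on chromosome 14 from 38368952 to 39473088, was at 70.9, 69.1 and 77.9 CPM in the Kmt5b shRNA libraries against 67.3, 66.8 and 67.3 CPM in the GFP libraries. The ranges did not overlap, with Nrg3 higher in the Kmt5b shRNA group, but the log2 fold change was only 0.11 ± 0.09 (SE). Nrg1, on chromosome 8 from 31814551 to 32884029, was at 21.1, 20.8 and 21.1 CPM in the Kmt5b shRNA libraries against 21.9, 26.0 and 23.8 CPM in the GFP libraries. These ranges did not overlap either, with Nrg1 lower in the Kmt5b shRNA group, and the log2 fold change was -0.19 ± 0.10 (SE). Of the 10 genes, Nrg1 had the smallest coefficient of variation across the Kmt5b shRNA libraries, 0.901% from 965 to 1202 counts. Nrg3 had the smallest across the GFP libraries, 0.475% from 2052 to 5266 counts. Counts of this size scatter by more than that through sampling alone, so neither value is read as a trait of the gene. Nrg2 was at 5.69, 6.11 and 6.11 CPM in the Kmt5b shRNA libraries and at 5.96, 5.79 and 5.53 CPM in the GFP libraries, ranges that overlap, with a log2 fold change of 0.05 ± 0.16 (SE). Nrg1 makes several protein types from different starts, and counts per gene cannot separate them. An exon of Nrg1 overlaps one of the noncoding gene Gm26578 on the other strand by 482 nucleotides, and whether the counting used strand is not given in the sources used here. Gm26578 had 37 to 82 counts in the Kmt5b shRNA libraries and 56 to 99 in the GFP libraries.

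Ranges of the groups that did not overlap were thus found for 3 of the 10 genes, Hbegf, Nrg3 and Nrg1, where 22.5% of all 24419 genes tested and 20.9% of the 15778 protein-coding genes among them had such ranges. Hbegf and Nrg3 were the 2 of these that were higher, where 9.84% of all genes and 12.3% of protein-coding genes were. An edgeR adjusted p under 0.05 over all genes was reached by 1 of the 10, Hbegf, where 8.46% of all genes tested and 5.32% of protein-coding genes reached it. The rule that picked the family used this comparison and Hbegf itself, so the choice fixed that call, and nothing is read from either count. The median log2 fold change of the 10 genes was 0.03, against -0.02 over all genes tested and 0.01 over protein-coding genes.

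The receptors through which these ligands act had ranges that overlapped between the groups. Erbb4, on chromosome 1 from 68032186 to 69108059, was at 131.7, 162.7 and 138.1 CPM in the Kmt5b shRNA libraries and at 151.8, 142.4 and 139.4 CPM in the GFP libraries. The GFP values lie inside the Kmt5b shRNA range, and the log2 fold change was 0.00 ± 0.10 (SE). Pvalb, the marker of the parvalbumin interneurons in which Erbb4 is known, was at 22.1, 23.3 and 23.7 CPM in the Kmt5b shRNA libraries against 34.9, 39.3 and 29.1 CPM in the GFP libraries, a log2 fold change of -0.58 ± 0.12 (SE, edgeR adjusted p = 0.00329). The interneuron markers as a list did not share this, with 1 of 8 lower and 0 higher, and their summed level was 601.3 to 631.3 CPM in the Kmt5b shRNA and 595.5 to 660.0 CPM in the GFP libraries. Of the 8, 3 had a log2 fold change above 0 and did not pass: Vip (0.27), Lhx6 (0.26) and Sst (0.15). The ranges of Vip and Lhx6 did not overlap between the groups. Egfr, on chromosome 11 from 16752203 to 16918158, was at 33.9, 30.1 and 31.6 CPM in the Kmt5b shRNA libraries and at 29.8, 33.2 and 31.1 CPM in the GFP libraries. Those ranges overlap almost wholly, with a log2 fold change of 0.02 ± 0.10 (SE). The summed level of 8 astrocyte markers was 4211 to 4798 CPM in the Kmt5b shRNA libraries and 4908 to 5056 CPM in the GFP libraries. Of the 8, 2 were lower, Aqp4 and Gja1, and 0 higher. Gfap of the same list went the other way and did not pass, with a log2 fold change of 0.39 ± 0.25 (SE, edgeR adjusted p = 0.545). The part of these markers in the values of Egfr and Hbegf was not tested. Erbb2 was low, at 2.71, 2.32 and 2.44 CPM in the Kmt5b shRNA libraries against 2.69, 1.63 and 2.45 CPM in the GFP libraries, with a log2 fold change of 0.13 ± 0.25 (SE). GFP replicate 2, the library of least depth, had the lowest Erbb2 value, from 50 counts, and without that library the log2 fold change was -0.04.

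Erbb3, on chromosome 10 from 128567523 to 128589652, was the receptor that varied most between libraries. It was at 8.80, 14.4 and 15.6 CPM in the Kmt5b shRNA libraries and at 16.5, 12.5 and 17.7 CPM in the GFP libraries. Kmt5b shRNA replicate 1 stood below the other 5 libraries, which overlapped between the groups. The log2 fold change of Erbb3 was -0.28 ± 0.20 (SE) with all libraries and -0.06 without Kmt5b shRNA replicate 1. The same library was the lowest for oligodendrocyte markers. The 9 markers, which include the myelin genes Mbp and Mog, summed to 1542, 2799 and 3256 CPM in the Kmt5b shRNA libraries and to 4292, 2808 and 3087 CPM in the GFP libraries. By edgeR 0 of the 9 passed the test (1 was lower at an unadjusted p under 0.05 and 1 by DESeq2), and all 9 had a log2 fold change below 0, with a median of -0.42. Set against those markers, Erbb3 was at 5.71, 5.14 and 4.79 CPM per 1000 CPM of summed markers in the Kmt5b shRNA libraries and at 3.84, 4.46 and 5.74 CPM in the GFP libraries, ranges that overlap. The 7 precursor markers summed to 255.8 to 304.5 CPM in the Kmt5b shRNA libraries and 255.8 to 268.7 CPM in the GFP libraries. Of these 7, 1 was higher and 0 lower: Olig2 was at 12.3, 12.7 and 15.1 CPM in the Kmt5b shRNA libraries against 10.1, 9.30 and 8.12 CPM in the GFP libraries (log2 fold change 0.54 ± 0.14, SE, edgeR adjusted p = 0.0211). Its part in the values of Erbb3 was not tested.

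**Figure D2:**
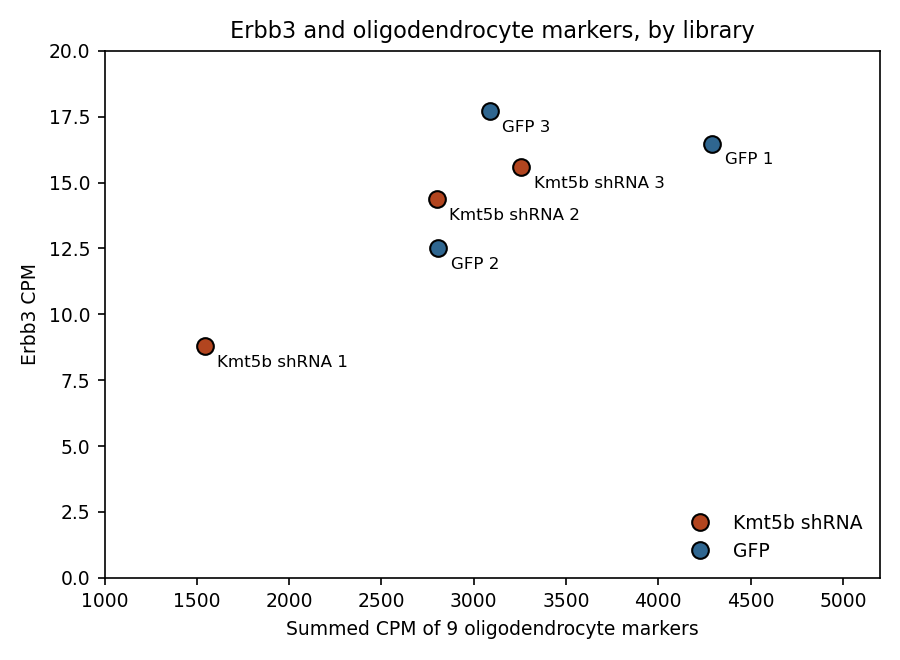
Erbb3 level (vertical axis, CPM) against the summed level of 9 oligodendrocyte markers (horizontal axis, CPM) in each of the 6 libraries. Kmt5b shRNA replicate 1 is lowest on both axes, at 8.80 CPM of Erbb3 and 1542 CPM of markers, and the other libraries of both groups intermix.

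Levels can be compared between genes only per length, so CPM was also divided by the kilobases of merged exons of each gene. These are the exons of all annotated transcripts of the gene, and the lengths of the transcripts present here were not measured. The order of genes and the shares below depend on that choice of length. By the median over the 6 libraries Erbb4 came first at 11.4 CPM per kb and Nrg3 followed at 10.01, and the ranges of these genes overlapped (10.7 to 13.2 for Erbb4, 9.79 to 11.4 for Nrg3). A gap separated them from Tgfa (median 3.46 CPM per kb), Egfr (2.77), Hbegf (2.59), Erbb3 (2.49) and Nrg1 (2.08), each overlapping the next in its range over libraries. Nrg2 followed at 1.87 CPM per kb, its range of 1.76 to 1.95 just below that of Nrg1, which was 2.01 to 2.51. Erbb2 (0.470) and Btc (0.191) came last, without overlap with each other or with Nrg2. The place of Hbegf in this order differed between the groups. Its level was 4.25, 3.04 and 5.40 CPM per kb in the Kmt5b shRNA libraries, against 2.14, 2.11 and 1.65 CPM per kb in the GFP libraries. It thus exceeded Tgfa in 2 of 3 Kmt5b shRNA libraries and in 0 of 3 GFP libraries.

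As a share of the 6 ligand genes per length, Hbegf made up 19.8%, 14.6% and 22.2% in the Kmt5b shRNA libraries against 10.8%, 10.6% and 8.62% in the GFP libraries. Nrg3 remained the largest ligand share in every library, with 48.05% ± 0.789 in the Kmt5b shRNA group and 50.1% ± 1.25 in the GFP group (SD, n = 3 each). Within the 3 EGF-type ligands alone, Hbegf made up 54.9% ± 8.73 in the Kmt5b shRNA group and 34.7% ± 2.69 in the GFP group (SD, n = 3 each), and Tgfa most of the rest. These shares carry the Hbegf difference by construction. The receptor shares had ranges over libraries that overlapped between the groups. Erbb4 made up 68.1% ± 2.48 in the Kmt5b shRNA group and 66.9% ± 1.98 in the GFP group, Egfr 16.6% ± 2.47 and 15.9% ± 1.46 in the same groups, Erbb3 12.5% ± 2.94 and 14.8% ± 2.28, and Erbb2 2.82% ± 0.469 and 2.47% ± 0.535 (SD, n = 3 each). The summed level of the 4 receptors was 17.1 ± 1.51 CPM per kb in the Kmt5b shRNA group and 17.5 ± 0.658 CPM per kb in the GFP group (SD, n = 3 each).

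**Figure D3:**
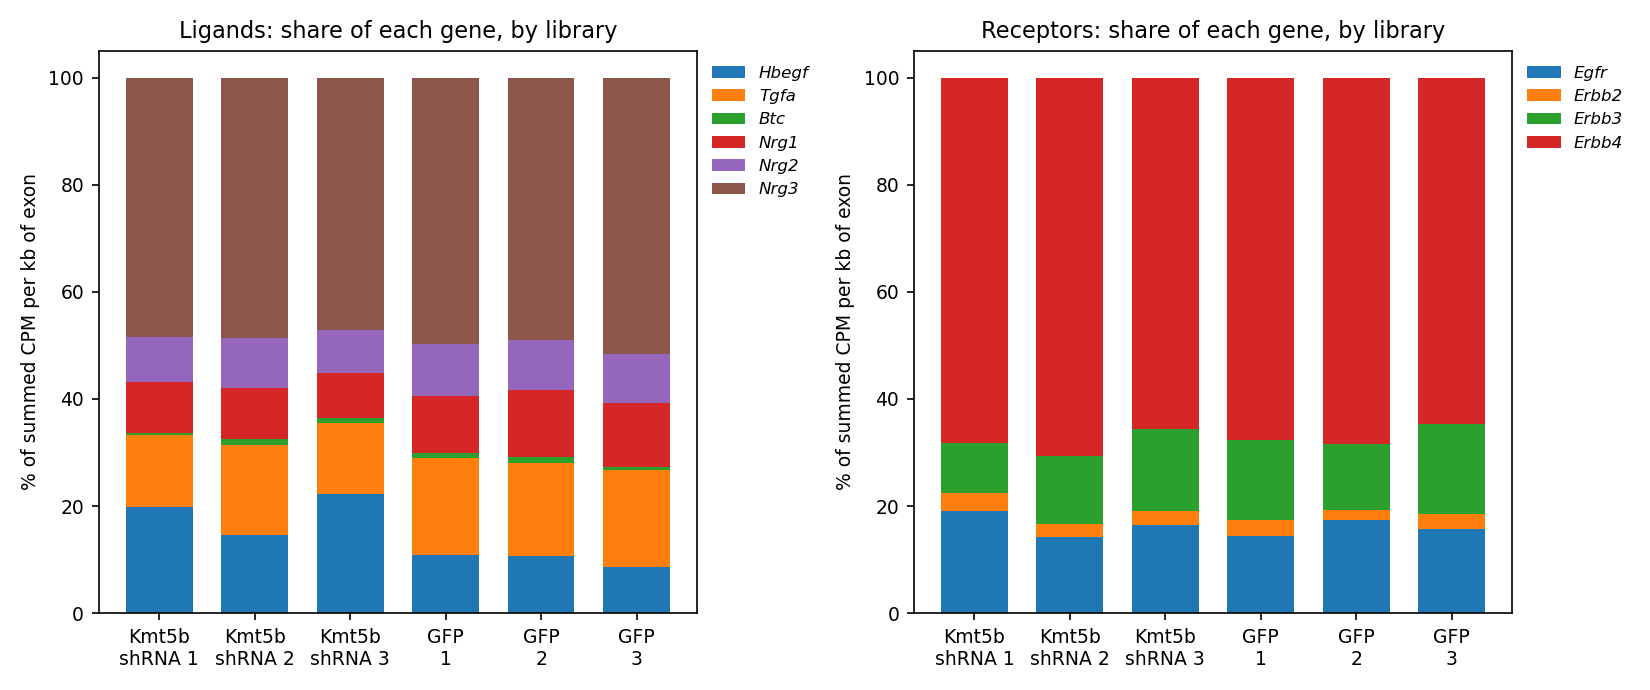
Share of each ligand gene (left) and each receptor gene (right) in the summed CPM per kilobase of exon, in percent (vertical axes), for each library. Hbegf takes 14.6% to 22.2% of ligand RNA in the Kmt5b shRNA libraries and 8.62% to 10.8% in the GFP libraries, and Erbb4 takes 64.7% to 70.6% of receptor RNA in all 6.

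Beyond ligands and receptors, 84 other genes of the pathway were taken in lists by role, chosen with earlier results of these data known. Of 81 that were tested, 4 rose in the Kmt5b shRNA libraries and 0 fell at an edgeR adjusted p under 0.05. Of all genes tested 2.77% rose, and of protein-coding genes 3.75%. Those that fell were 1390 of all 24419 genes and 249 of the 15778 protein-coding genes. With DESeq2 7 pathway genes were higher and 1 lower, against 877 and 1539 of all genes. At an unadjusted edgeR p under 0.05, 14 pathway genes were higher and 3 lower. The share over all genes at that threshold was not taken. Nothing is therefore read from these counts, or from those at the same threshold given by list below. The median log2 fold change of the 81 was 0.04. The direction of the calls depended on GFP replicate 3: without that library 1 pathway gene was higher and 4 were lower (Dusp1, Dusp4, Fos and Spry4).

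None of the 10 genes for ligand release passed. This list holds the sheddase genes Adam10 and Adam17 and the genes of the iRhom proteins that control ADAM17, and its median log2 fold change was 0.10. The smallest p was that of Rhbdf1, which encodes iRhom1, at 14.7 ± 3.31 CPM in the Kmt5b shRNA group and 9.99 ± 2.27 CPM in the GFP group (SD, n = 3 each, edgeR adjusted p = 0.106). Leaving out either replicate 2, of Kmt5b shRNA or of GFP, gave Rhbdf1 an adjusted p of 0.0145 or 0.0353. Leaving out any of the other libraries gave 0.240 to 0.307. By unadjusted edgeR p under 0.05 and by DESeq2, 1 gene of the list was higher and 0 lower. None of the 18 genes for receptor inhibitors and turnover passed, with a median of 0.03. Spred1, an inhibitor of RAS to ERK signalling, had the smallest p there, at 314.4 ± 33.1 CPM in the Kmt5b shRNA group and 248.9 ± 30.0 CPM in the GFP group (SD, n = 3 each, edgeR adjusted p = 0.102). The Spred1 adjusted p was 0.0399 when GFP replicate 1 was left out and 0.0949 to 0.378 when any other library was. In this list 2 genes were higher at an unadjusted edgeR p under 0.05 and 1 by DESeq2, and 0 were lower by either. When GFP replicate 3 was left out, Spry4 and Dusp4, which encode inhibitors of ERK signalling, passed as lower, with edgeR adjusted p of 0.0453 and 0.0366.

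Among 36 adaptors and signalling enzymes, 2 rose, of which Nras is described here, and the list median was 0.06. Nras, one of the RAS switch proteins, was at 90.2, 92.8 and 97.7 CPM in the Kmt5b shRNA libraries against 81.7, 57.4 and 70.3 CPM in the GFP libraries. The groups did not overlap, and Nras rose by 0.42 ± 0.12 on the log2 scale (SE, edgeR adjusted p = 0.0365), and its call was lost in 5 of the 6 fits that each left out 1 library. The Nras adjusted p was 0.0944, 0.0787 and 0.101 when Kmt5b shRNA replicates 1, 2 and 3 were left out in turn, and 0.123 and 0.0981 for GFP replicates 2 and 3. Nras shares a stretch of at least 100 nucleotides at 90% identity with 817 other genes. With 0 of them is the stretch 200 nucleotides or longer, and Nras has no pseudogene copy. The part of shared sequence in its counts was not tested.

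Of 15 early response genes, 2 rose, the ETS transcription factor genes Etv4 and Etv5, and the list median was 0.04. Etv4 was at 10.4, 9.30 and 11.2 CPM in the Kmt5b shRNA libraries against 6.31, 7.87 and 5.51 CPM in the GFP libraries, with no overlap. Etv4 rose by 0.66 ± 0.16 on the log2 scale (SE, edgeR adjusted p = 0.0165). When Kmt5b shRNA replicates 1 and 3 were left out in turn the Etv4 adjusted p was 0.0757 and 0.0680, and it was 0.0835 for GFP replicate 3. Etv5 was at 159.4, 165.2 and 164.0 CPM in the Kmt5b shRNA libraries against 138.9, 121.6 and 109.5 CPM in the GFP libraries, with a log2 fold change of 0.40 ± 0.10 (SE, edgeR adjusted p = 0.0217). Etv5 has a processed pseudogene, Gm4798, that matches it at 98.6% identity over 1700 nucleotides. Gm4798 had 19, 11 and 14 counts in the Kmt5b shRNA libraries and 1129, 440 and 1060 counts in the GFP libraries. With the counts of the copy added, Etv5 was at 159.7, 165.4 and 164.2 CPM in the Kmt5b shRNA libraries against 155.7, 135.9 and 123.0 CPM in the GFP libraries. Its log2 fold change was then 0.24 ± 0.10 (SE) with an edgeR adjusted p of 0.232, so the Etv5 call ends when the copy is counted with the gene. The Etv5 adjusted p was also 0.0809 and 0.0588 when Kmt5b shRNA replicates 1 and 2 were left out in turn, and 0.0600 and 0.131 for GFP replicates 2 and 3. Etv4 shares no stretch of 100 nucleotides with another gene. The immediate early genes Fos, Egr1 and Junb of the same list had log2 fold changes of -0.32, -0.08 and -0.06 and did not pass. Fos passed as lower in the fit without GFP replicate 3, with an adjusted p of 0.0267.

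**Figure D4:**
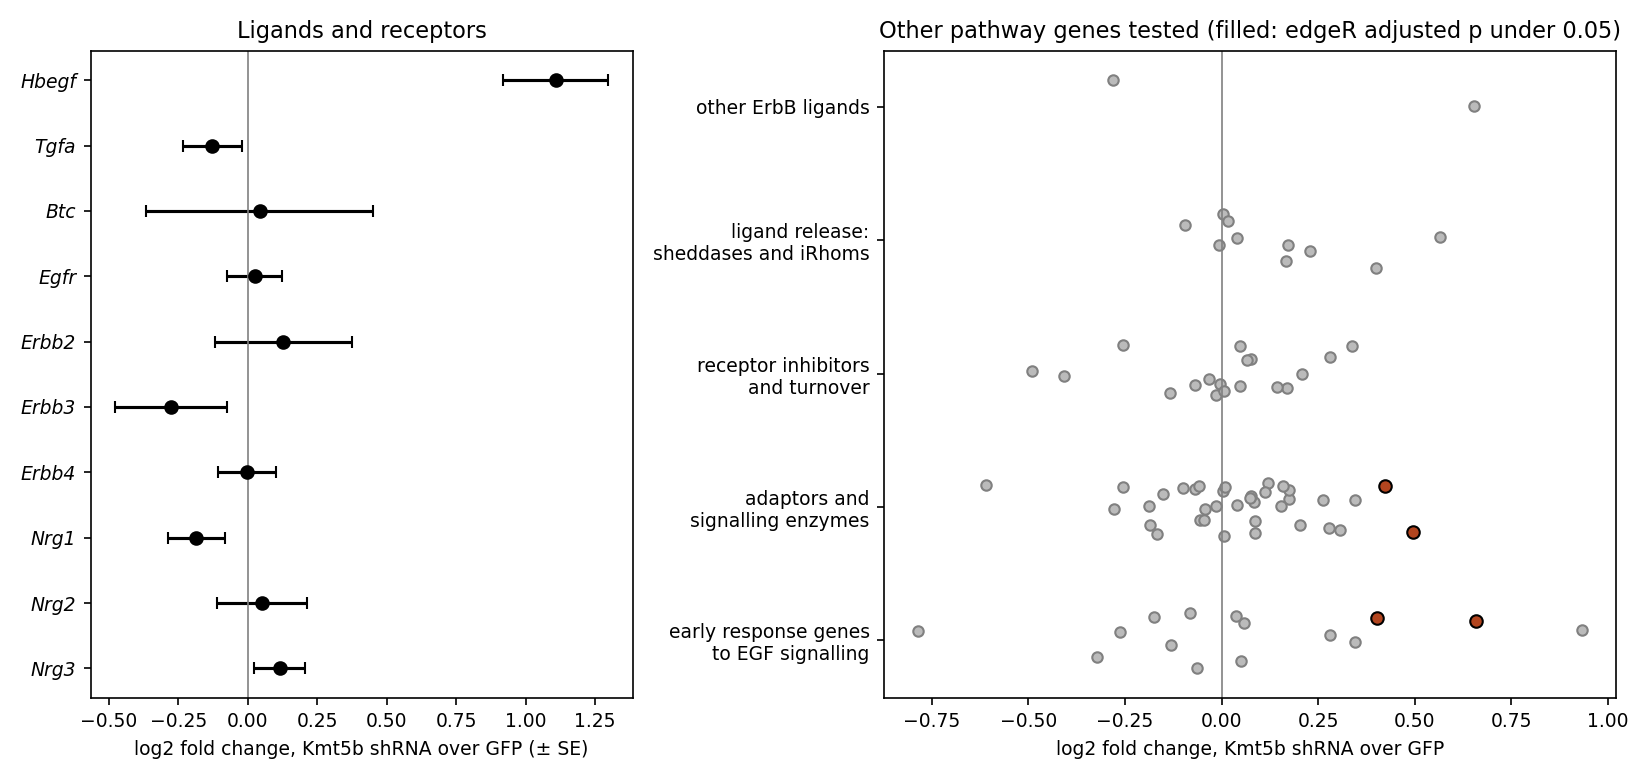
Log2 fold change of Kmt5b shRNA over GFP (horizontal axes). Left, the 10 ligand and receptor genes with SE, Hbegf alone beyond 0.3 of 0. Right, the 81 other pathway genes tested, by list, with vertical scatter for legibility; the 4 filled points reached an edgeR adjusted p under 0.05.

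The genes whose level across the 6 libraries was most like that of Hbegf were sought among 15055 others by Pearson correlation of log2 CPM. The 5 closest were Ccl12, Ptpn1, Rsad2, Vstm4 and Cdk8, with coefficients of 0.997, 0.996, 0.996, 0.995 and 0.994 over 6 libraries that fall into 2 groups. Rsad2, an antiviral protein gene induced by interferon, was at 31.5, 20.1 and 48.7 CPM in the Kmt5b shRNA libraries and 9.24, 8.69 and 6.61 CPM in the GFP libraries. Ccl12, a chemokine gene, was at 4.94, 3.92 and 5.94 CPM in the Kmt5b shRNA libraries and 2.84, 2.73 and 2.42 CPM in the GFP libraries. Ptpn1, which encodes a tyrosine phosphatase, was at 53.7, 49.9 and 57.6 CPM in the Kmt5b shRNA libraries and 46.7, 46.98 and 44.6 CPM in the GFP libraries. Vstm4 was at 5.83, 4.69 and 6.69 CPM in the Kmt5b shRNA libraries and 3.65, 3.71 and 3.39 CPM in the GFP libraries. Cdk8, a kinase gene of the Mediator complex, was at 38.7, 35.9 and 41.1 CPM in the Kmt5b shRNA libraries and 33.1, 32.8 and 32.1 CPM in the GFP libraries. All 5 had their highest value in Kmt5b shRNA replicate 3 and their lowest Kmt5b shRNA value in replicate 2, the order of Hbegf for which the search picked them. The same search for Erbb3 gave Pdlim2, Phlpp1, Ccdc77, Irgm2 and Gbp8, with coefficients of 0.992, 0.991, 0.990, 0.984 and 0.978. With 6 libraries and so many genes compared, coefficients of this size are a description of the pattern and carry no test.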

How the data were processed

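The 6 deposited files hold raw read counts per gene symbol, 1 library each. The submitters' processing notes name the build mm10 and the tools featureCounts, STAR and DESeq2, while the labels' protocols name Cutadapt and TopHat2 with RefSeq mRNAs. Versions are not given in the sources used here. Groups and replicate numbers came from the titles. Nothing in the labels ties each library to its own mouse, so p-values measure only the spread between these libraries, which may be technical.

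The test was that of edgeR 4.0.16 under R 4.3.3 (filterByExpr, TMM, robust quasi-likelihood fit with legacy=TRUE, Benjamini-Hochberg over 24419 genes, threshold 0.05). Each SE was derived from the fold change on the log2 scale and its F statistic. Positions and exon lengths came from GENCODE M21 and shared sequence from BLAST+ 2.17.0 (90% identity over at least 100 nucleotides, a copy being a pseudogene covered over at least 50%). On simulated counts of 23858 genes for this comparison, the same fit found 67% of 100 genes given a log2 change of 1, and 24% of 100 given 0.5. Among its calls 12.5% were false, a share above the threshold of 0.05. The changed genes were drawn from those above a low mean count and went up and down equally often, unlike the uneven real calls. These shares therefore need not hold for the real comparison. The members and gene lists were chosen with earlier results of these data known. The named pathway genes are up to 2 called genes per list and direction, or else the gene of smallest p, and for Hbegf and Erbb3 the 5 genes of most similar log2(CPM + 0.5) among genes of average log2 CPM of at least 1. Pvalb, Vip, Lhx6, Sst, Olig2, Dusp1, Dusp4, Spry4, Fos, Egr1, Junb, Aqp4, Gja1, Gfap and Nrg4 were named after their values were seen. The values of 1 called pathway gene are not reported here.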

Additional observations from a re-analysis of the deposited data

How the results depend on the processing

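The 15 alternatives run included DESeq2 1.42.0, RLE and upper-quartile scaling and each library left out. Btc, Egfr, Erbb2 and Erbb4, all near 0, changed sign in some. Each of the 10 members moved by less than its own SD between replicates on the log2 scale. That bar is wider for a noisier gene, and leaving out 1 of 3 libraries can hardly exceed it, so no stability is read from it. Without Kmt5b shRNA replicate 1, Erbb3 went from -0.28 to -0.06 and Btc from 0.04 to 0.37. Hbegf ranged from 1.08 to 1.12 under the 9 alternatives that used all libraries and from 0.90 to 1.30 with a library left out. The count of all genes called, 2066 (676 higher, 1390 lower), was 655 when protein-coding genes were fitted alone (471 higher, 184 lower) and 652 when copies were also added. Each library left out in turn gave 1696 to 2332. The 4 pathway calls became 8 with DESeq2 (7 higher, 1 lower), 10 with no filter on low counts (9 higher, 1 lower) and 2 with copies added among protein-coding genes. They ranged from 2 to 7 with a library left out, the ends being the fits that left out Kmt5b shRNA replicate 3 and GFP replicate 1, all of these calls higher. Without GFP replicate 3 the split turned to 1 higher and 4 lower. The Nras adjusted p was 0.0694 among protein-coding genes and 0.0502 without the robust fit. Dusp1, an ERK phosphatase gene with an edgeR adjusted p of 0.0874, was lower under DESeq2, without the filter, without the robust fit, with the block, and with Kmt5b shRNA replicate 1 or GFP replicate 3 left out, which was noticed after its values were seen. The cause of these shifts was not tested. Deviations of same-numbered libraries correlated at -0.08, -0.12 and 0.37, and those of differently numbered libraries at -0.38 to 0.44. With so few libraries a group, these values cannot show whether the replicate numbers pair the libraries. With the replicate number as a block, 2211 genes and 5 pathway genes were called. Adding copies was chosen after the data were seen. Btc, with 22 to 52 counts a library, is limited by depth. In every library more genes had exactly 2 counts than exactly 1. These were 2288 to 2356 against 1033 to 1109 genes in the Kmt5b shRNA libraries. In the GFP libraries they were 2504 to 2742 against 833 to 910. Whether a count stands for a read or a pair of reads was not tested.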
